A study of Mus musculus with 9 samples.

Results

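Aminoacyl-tRNA synthetase genes were followed through 9 Affymetrix mouse arrays of vector-carrying bone marrow cells. The set listed 38 genes, 20 for cytosolic enzymes, 16 for mitochondrial enzymes and 2 for scaffold proteins of the cytosolic synthetase complex. A member was taken where a probe set carried its symbol alone, or its newer symbol with 1 added, and of several such probe sets the one brightest on average would stand for the gene. By this rule 37 of the 38 were found among the 17731 genes of the table, each with 1 probe set. The member without one was Dars, for aspartate, and Mars, for methionine, was listed under its newer symbol Mars1.

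The cells came from C57BL/6 mice, carried HoxA9 as an immortalising oncogene and were infected with a retrovirus of the pSF91 type that also encodes a green fluorescent protein. They were given to irradiated mice of the same strain, and marrow cells positive for the fluorescent protein were sorted 4 weeks later and extracted for total RNA. CTL cells (3 arrays) had the vector without an insert, IDH1wt cells (3 arrays) had it with wild-type IDH1, and IDH1mut cells (3 arrays) had it with mutant IDH1. The enzyme IDH1 oxidises isocitrate outside the mitochondrion, and its cancer mutants make 2-hydroxyglutarate. HoxA9, the transduction and the transplantation were thus common to all 3 groups. The labels do not give the mutation, the species of the insert, the age of the mice, the number of founder clones, or whether the 3 arrays of a group came from separate or pooled mice. The p-values below therefore measure the spread between these arrays, which may be technical. Granulocyte markers were among the brightest genes in every group (S100a9 at 14.12, 14.11 and 14.15 in CTL, IDH1wt and IDH1mut, and Mpo at 13.31, 13.35 and 12.69, as group means of log2 values).

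These enzymes join amino acids, nearly always 1 kind each, to transfer RNA with the use of ATP, and so supply the ribosome with charged tRNA. Most amino acids are served by separate nuclear genes for the cytosol and for the mitochondrion, the latter marked by a 2 at the end of the symbol, while Gars and Kars each provide both compartments from a single gene. In the cytosol, part of the enzymes sit in a large complex held together by Aimp1, Aimp2 and Eef1e1. When amino acids run short, uncharged tRNA activates the kinase GCN2, phosphorylated eIF2 favours translation of the transcription factor ATF4, and ATF4 is known to raise transcription of many cytosolic synthetase genes from a response element shared by C/EBP and ATF factors. MYC, which binds E-boxes, is another known regulator of genes of protein synthesis.

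Promoter windows from RefSeq (GRCm38.p6; 250 bases before to 50 after the start, 300 in all) were given for 28 of the 37 members, 12 cytosolic, 14 mitochondrial and 2 scaffold genes. Both strands were searched for TGATGNAA, the core of the ATF4 response element, and for the E-box CACGTG, motifs that do not overlap in the sequences shown. The ATF4 core was in the windows of 5 of 12 cytosolic genes (Aars, Gars, Iars, Tars and Yars), of 0 of 14 mitochondrial genes and of 0 of 2 scaffold genes, and in 3.97% of the 32851 windows of all genes. The E-box was in 4 of 12 cytosolic windows (Aars, Farsb, Iars and Tars), in 1 of 14 mitochondrial windows (Ears2), and in 7.15% of all windows. These matches describe letters, not binding. Shown first, up to base 30 after the start, are the windows of Aars, Kars and Ears2, members that fell in IDH1mut with both motifs, neither motif and an E-box alone. Capitals mark the motif matches, and each sequence runs 5′ to 3′ on the strand of its gene.
Aars (chr8:111033592-111033871, plus strand): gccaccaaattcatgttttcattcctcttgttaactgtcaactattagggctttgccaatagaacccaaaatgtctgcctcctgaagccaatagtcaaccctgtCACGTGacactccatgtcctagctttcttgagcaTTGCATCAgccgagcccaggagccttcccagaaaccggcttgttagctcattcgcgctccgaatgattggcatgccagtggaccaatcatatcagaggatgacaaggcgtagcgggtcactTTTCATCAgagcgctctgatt
Kars (chr8:112011325-112011604, minus strand): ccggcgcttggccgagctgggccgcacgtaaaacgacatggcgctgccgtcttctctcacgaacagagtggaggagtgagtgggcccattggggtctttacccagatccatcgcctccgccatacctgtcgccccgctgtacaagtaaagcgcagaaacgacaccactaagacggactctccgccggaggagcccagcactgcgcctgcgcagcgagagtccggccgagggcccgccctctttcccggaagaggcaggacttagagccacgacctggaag
Ears2 (chr7:122067057-122067336, minus strand): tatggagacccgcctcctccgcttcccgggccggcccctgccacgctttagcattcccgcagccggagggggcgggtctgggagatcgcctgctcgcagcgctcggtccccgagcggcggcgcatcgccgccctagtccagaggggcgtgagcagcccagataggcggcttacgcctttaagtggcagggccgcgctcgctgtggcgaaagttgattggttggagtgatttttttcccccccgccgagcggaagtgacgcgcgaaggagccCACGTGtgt

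The other 4 synthetase genes with an ATF4 core are shown as stretches of 80 bases around it, since their change can be set against that of Aars. Capitals again mark the core and, in Tars, the E-box beside it.
Gars (chr6:55037935-55038014, plus strand): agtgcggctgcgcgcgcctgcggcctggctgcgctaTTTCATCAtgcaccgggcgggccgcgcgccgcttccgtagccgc
Iars (chr13:49682080-49682159, plus strand): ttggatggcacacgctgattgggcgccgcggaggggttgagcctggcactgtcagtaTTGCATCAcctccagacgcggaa
Tars (chr15:11399630-11399709, minus strand): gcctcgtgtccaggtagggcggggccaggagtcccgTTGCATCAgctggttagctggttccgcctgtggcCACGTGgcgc
Yars (chr4:129189853-129189932, plus strand): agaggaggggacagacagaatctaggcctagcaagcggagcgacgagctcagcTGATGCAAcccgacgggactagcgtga

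Beyond the synthetases, Asns (asparagine synthetase), Chac1 (a glutathione-degrading enzyme) and Slc7a11 (a cystine transporter) are textbook ATF4 targets. Their stretches of 80 bases are given for comparison with the same core in capitals. Of the ATF4 response genes listed below that hold the core, only these rose in IDH1mut against CTL, so they do not stand for the others.
Asns (chr6:7693189-7693268, minus strand): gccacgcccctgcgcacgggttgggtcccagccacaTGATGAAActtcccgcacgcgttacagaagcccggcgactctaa
Chac1 (chr2:119351013-119351092, plus strand): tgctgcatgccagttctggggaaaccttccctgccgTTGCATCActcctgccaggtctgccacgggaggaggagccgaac
Slc7a11 (chr3:50443636-50443715, minus strand): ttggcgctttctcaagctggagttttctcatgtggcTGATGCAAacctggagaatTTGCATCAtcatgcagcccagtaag

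In IDH1mut against CTL, 9 of the 37 synthetase genes fell and 0 rose, at a limma adjusted p below 0.05 over all 17731 genes. The 9 make up 24.3% of the members, while 10.6% of all genes were lower and 10.1% were higher in the same comparison. The enzyme genes that fell were Nars, Farsa, Aars, Vars, Sars and Kars of the cytosol (6 of 19) and Ears2, Yars2 and Lars2 of the mitochondrion (3 of 16), with folds from 1.24 to 1.72. The 2 scaffold genes did not pass. By brightness, 32 of the 37 members lay above the median level of all genes (4.94), all 9 that fell among them, and of the genes above that level 18.1% were lower and 17% higher. Tested on their own, the 32 brighter members gave 16 falls, beside 24.7% of the genes in that test. The members below it were Cars, Qars, Cars2, Mars2 and Nars2, where folds on the log2 scale of RMA are compressed. These are bulk samples, in which fewer cells of a type with much of a transcript cannot be told apart from less of it per cell.

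Direction was shared more widely than the calls. The difference lay below 0 for 31 of 37 members, against 57.3% of all genes. The median difference was -0.16 for the cytosolic, -0.18 for the mitochondrial and -0.04 for all genes. The cytosolic median was -0.087 without CTL replicate 2. On 21 of 37 members every IDH1mut array was below every CTL array, and on 5 every one was above (all genes: 21.5% and 16.3%). The plot of differences shows both compartments spread from clear falls to values near 0.

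**Figure D1:**
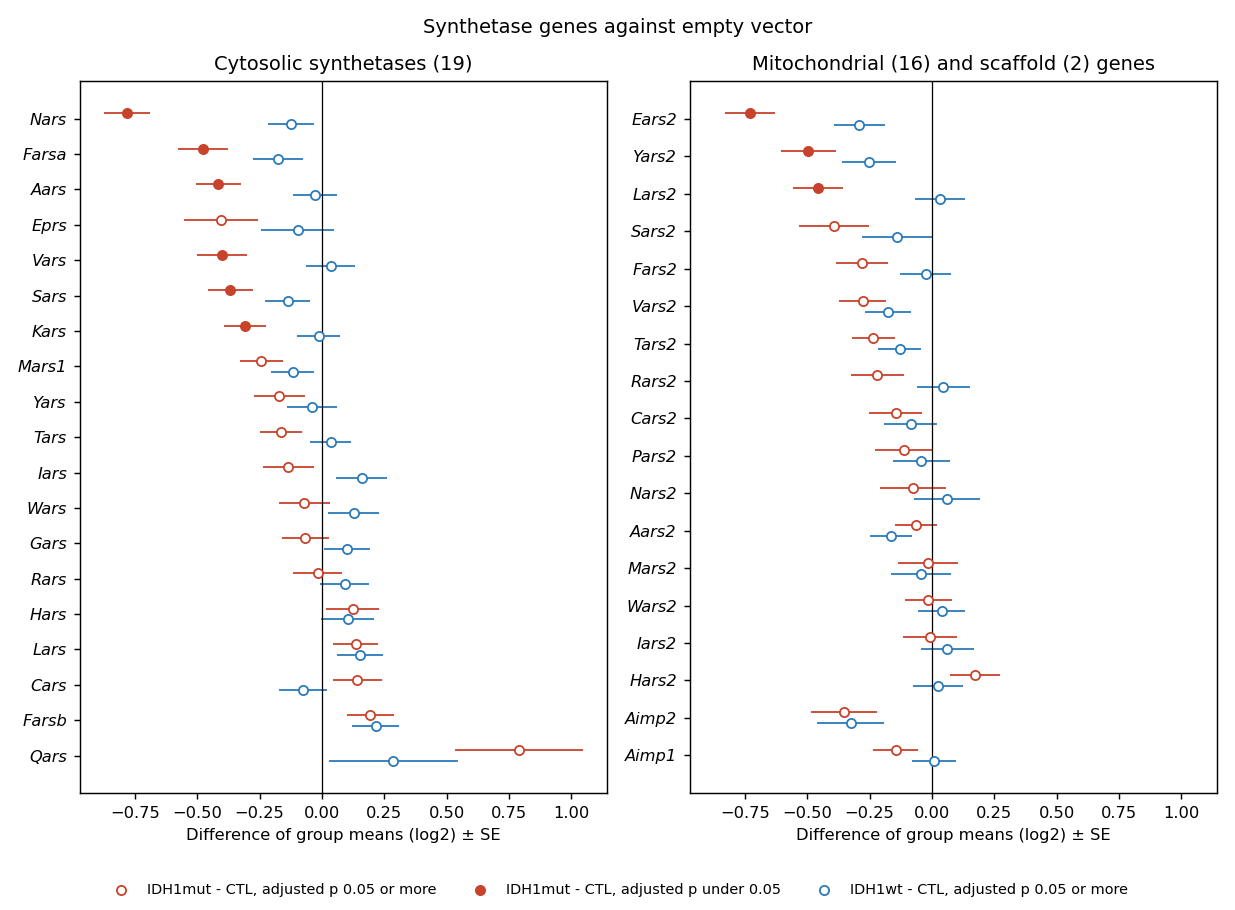
Difference of group means (log2) ± SE for each of the 37 genes, IDH1mut minus CTL in red and IDH1wt minus CTL in blue, with filled points for a limma adjusted p under 0.05. All 9 filled points are red and lie left of 0, and Qars, at 0.79, is the point farthest to the right.

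Nars, the asparaginyl-tRNA synthetase, fell furthest. Its arrays read 10.59, 10.49 and 10.65 in CTL, 10.42, 10.49 and 10.44 in IDH1wt, and 9.90, 9.80 and 9.68 in IDH1mut. The IDH1mut arrays stood apart from all 6 others, and the difference from CTL was -0.78 ± 0.09 (SE, n = 3 against 3; 1.72-fold lower; limma adjusted p = 0.000238). Farsa, the catalytic subunit of phenylalanyl-tRNA synthetase, read 8.39, 8.44 and 8.50 in CTL, 8.18, 8.27 and 8.36 in IDH1wt, and 8.08, 7.99 and 7.82 in IDH1mut. It fell by 0.48 ± 0.10 (adjusted p = 0.00578), with IDH1wt in between and no overlap of the 3 groups. Farsb, the other subunit of the same enzyme, did not pass: at 8.54, 8.70 and 8.64 in CTL against 8.75, 8.75 and 8.95 in IDH1mut, its difference was 0.19 ± 0.09 (adjusted p = 0.179).

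Aars, the alanyl-tRNA synthetase, whose promoter window held both motifs, read 8.70, 8.65 and 8.66 in CTL, 8.57, 8.73 and 8.62 in IDH1wt, and 8.32, 8.24 and 8.19 in IDH1mut. CTL and IDH1wt overlapped and IDH1mut lay below both, at -0.42 ± 0.09 from CTL (adjusted p = 0.00673). Vars, for valine, showed the same order, with 8.75, 8.63 and 8.78 in CTL, 8.63, 8.85 and 8.78 in IDH1wt, and 8.39, 8.37 and 8.19 in IDH1mut. Its difference from CTL was -0.40 ± 0.10 (adjusted p = 0.0148). The fall of Vars missed the threshold when any of CTL replicate 1 (adjusted p = 0.0591), CTL replicate 3 and IDH1mut replicate 3 was omitted.

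Sars, the seryl-tRNA synthetase, read 8.50, 8.38 and 8.50 in CTL, 8.30, 8.35 and 8.32 in IDH1wt, and 8.21, 8.05 and 8.02 in IDH1mut, so that IDH1wt lay between the other groups without overlap. It fell by 0.37 ± 0.09 (adjusted p = 0.014), and the call was lost without CTL replicate 1 (adjusted p = 0.0618) or CTL replicate 3. Kars, which charges lysine tRNA in both compartments and whose window held neither motif, read 9.22, 9.27 and 9.18 in CTL, 9.29, 9.18 and 9.16 in IDH1wt, and 8.89, 8.91 and 8.95 in IDH1mut. Its groups were tight and its fall the smallest of the 9, by 0.31 ± 0.09 (adjusted p = 0.024). Kars missed the threshold when any one of 5 arrays was omitted, IDH1mut replicate 3 being the exception (highest adjusted p = 0.0793, CTL replicate 1 omitted).

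Among mitochondrial enzymes Ears2 fell most. It charges glutamate and, in mitochondria, also loads the glutamine tRNA with glutamate for later conversion. Its arrays read 5.83, 5.81 and 5.87 in CTL, 5.61, 5.39 and 5.64 in IDH1wt, and 5.20, 4.98 and 5.13 in IDH1mut, 3 separate bands. The difference between IDH1mut and CTL was -0.73 ± 0.10 (1.66-fold lower; adjusted p = 0.000582).

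Yars2, for tyrosine, read 6.81, 6.80 and 6.87 in CTL, 6.73, 6.51 and 6.50 in IDH1wt, and 6.35, 6.50 and 6.16 in IDH1mut, where the highest IDH1mut array was level with the lowest IDH1wt array. It fell by 0.50 ± 0.11 against CTL (adjusted p = 0.00794). Lars2, for leucine, read 8.05, 7.80 and 7.94 in CTL, 8.05, 7.94 and 7.89 in IDH1wt, and 7.38, 7.56 and 7.48 in IDH1mut. CTL and IDH1wt coincided while IDH1mut lay 0.46 ± 0.10 lower than CTL (adjusted p = 0.00773). The falls of 6 of the 9 genes, namely Nars, Farsa, Aars, Ears2, Yars2 and Lars2, stayed past the threshold in all 14 alternative fits. Among these fits, the mean of probe sets could not change the values of a member.

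**Figure D2:**
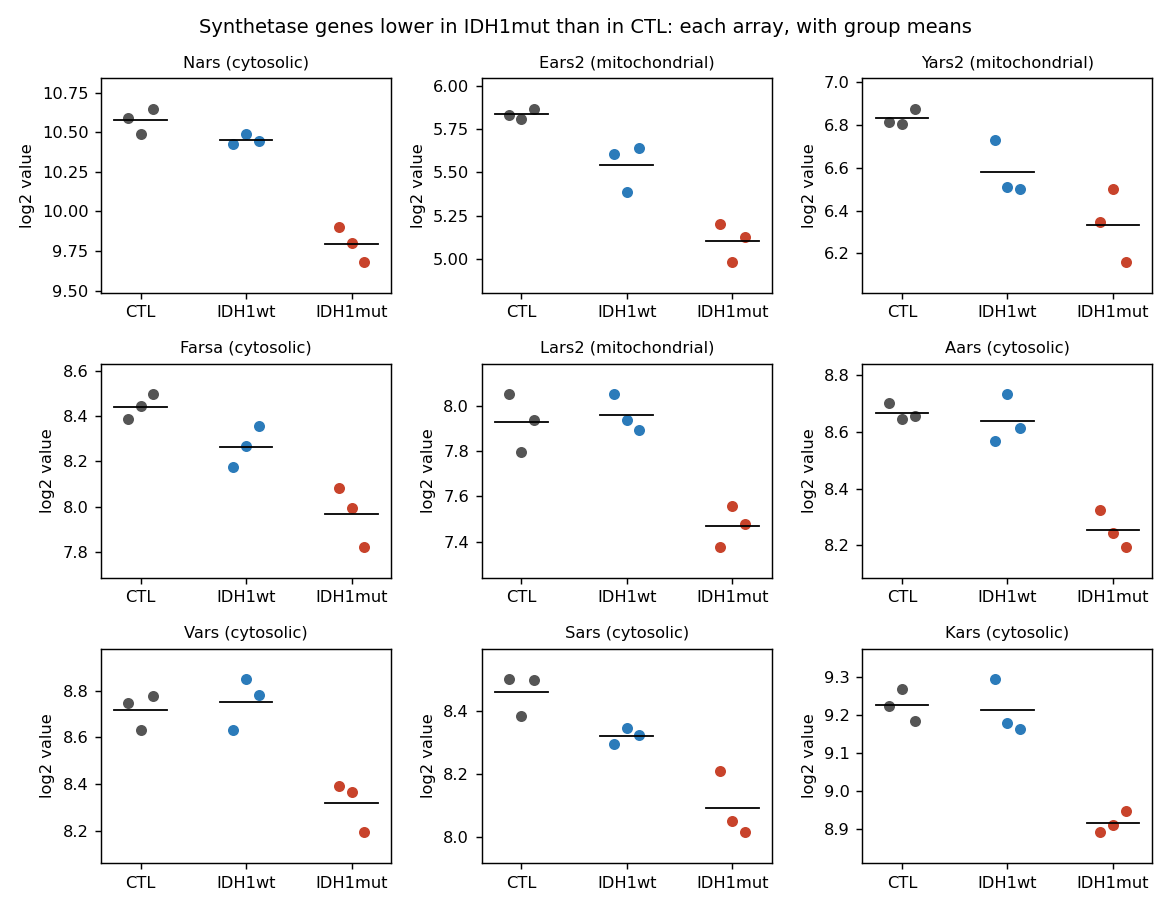
Log2 value on each of the 9 arrays for the 9 synthetase genes that fell in IDH1mut against CTL; points are arrays, black bars group means, and each panel has its own axis that does not start at 0. The IDH1mut points lie below all CTL points in every panel, and the IDH1wt points lie with CTL in Lars2, Aars, Vars and Kars and between the groups in Ears2, Farsa and Sars.

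The other 28 members did not pass. Several lay at -0.22 or lower: Eprs (-0.41 ± 0.15; adjusted p = 0.0751), Mars1 (-0.24 ± 0.09), Sars2 (-0.39 ± 0.14), Fars2 (-0.28 ± 0.10), Vars2 (-0.28 ± 0.09; adjusted p = 0.0541), Tars2 (-0.24 ± 0.09), Rars2 (-0.22 ± 0.11) and Aimp2 (-0.35 ± 0.13). Of the 4 uncalled cytosolic genes with an ATF4 core in their window, Iars (-0.13 ± 0.10), Tars (-0.16 ± 0.08) and Yars (-0.17 ± 0.10) were close to or at the cytosolic median of -0.16. Gars (-0.07 ± 0.09) lay nearer to the median of all genes (-0.04). Differences above 0 were those of Hars (0.12 ± 0.11), Lars (0.13 ± 0.09), Cars (0.14 ± 0.10), Farsb and Hars2 (0.17 ± 0.10), besides Qars. Rars, Wars, Aars2, Cars2, Iars2, Mars2, Nars2, Pars2, Wars2 and Aimp1 lay between -0.15 and -0.01.

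Qars, the glutaminyl-tRNA synthetase, had the difference farthest above 0 and the widest spread within IDH1mut. It read 2.89, 2.43 and 2.73 in CTL, 3.22, 2.97 and 2.72 in IDH1wt, and 3.03, 4.19 and 3.20 in IDH1mut, near the low end of the array scale, which starts at 1.72. The difference of 0.79 ± 0.26 missed the threshold (adjusted p = 0.0503), and IDH1mut replicate 2 was about 1 log2 unit above the other IDH1mut arrays. Without that array the difference was 0.43 (adjusted p = 0.117). The call appeared when arrays were centred or quantile-normalised again, with array weights, and without IDH1mut replicate 1.

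By structure, 1 of the 7 measured enzymes of the multisynthetase complex fell (Kars), at a median of -0.13, and 5 of the 12 cytosolic enzymes outside it fell, at a median of -0.17. Of the enzymes of class I, which share a Rossmann-fold catalytic domain, 4 of 19 fell (Vars, Ears2, Yars2 and Lars2). Of those of class II, built on an antiparallel beta sheet, 5 of 16 fell (Nars, Farsa, Aars, Sars and Kars). As shares these are 14.3% and 41.7% for the complex and the other cytosolic enzymes, and 21.1% and 31.2% for class I and class II, beside 10.6% of all genes and 18.1% of the brighter ones. The shares of the complex and of class I thus lay near that of the brighter genes, and the counts were not tested against each other.

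Cytosolic and mitochondrial genes of the same amino acid could be set side by side in 16 pairs, with Fars2 paired once with each subunit gene of its cytosolic counterpart. Eprs was paired with Ears2 alone, and Pars2 was in no pair. In IDH1mut against CTL both differences had the same sign in 13 pairs, 12 of them below 0 in both genes. The cytosolic difference minus the mitochondrial one was -0.70 for Nars and Nars2 and -0.35 for Aars and Aars2. It was 0.59 for Lars and Lars2, 0.47 for Farsb and Fars2 and 0.32 for Eprs and Ears2. An exact permutation test over 3 against 3 arrays cannot go below 0.10 two-sided; 8 of the 16 pairs reached that value (adjusted p = 0.2 over the 16), so no pair could have passed 0.05 in this design and the test does not bear on whether the compartments differ. The cytosolic gene had the lower difference in 8 of the 16 pairs, so neither compartment was the lower one throughout. Nars2, Cars, Cars2 and Mars2 were among the dim members, which limits the comparisons for asparagine, cysteine and methionine.

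**Figure D3:**
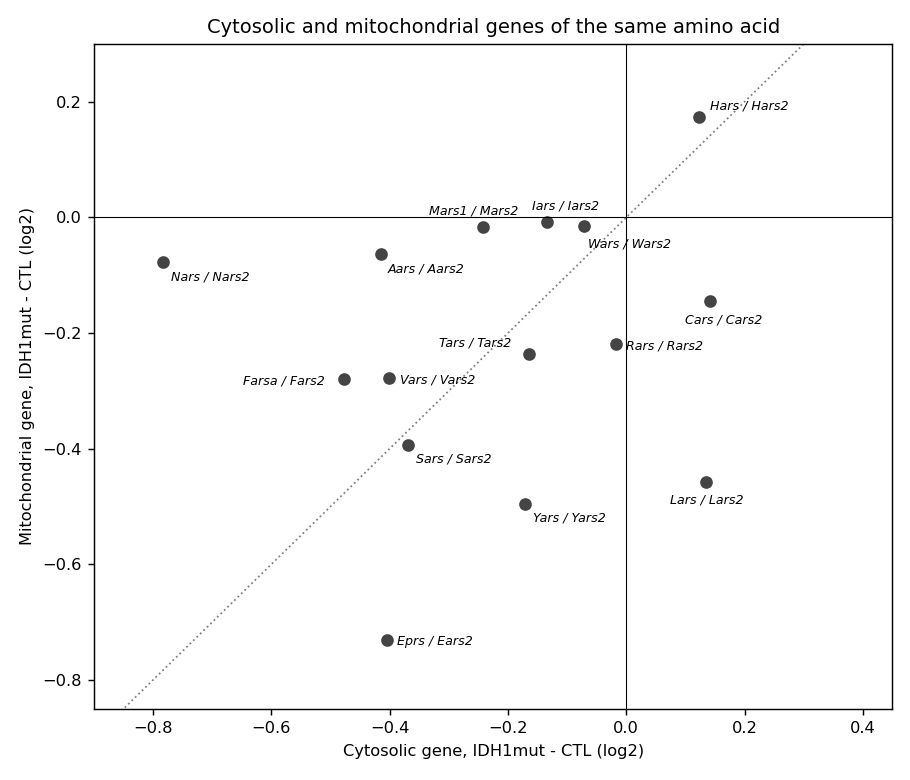
Difference between IDH1mut and CTL (log2) of the cytosolic gene (x axis) and of the mitochondrial gene (y axis) for 15 amino acid pairs, with Farsa standing for phenylalanine; the dotted line marks equal differences. Nars / Nars2 lies far left near 0 on the y axis, Lars / Lars2 lies to the right and low, and Sars / Sars2 lies close to the line.

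Per array, the median deviation of the 19 cytosolic genes from their means over all arrays was 0.02 to 0.06 in CTL, 0.04 to 0.09 in IDH1wt and -0.17 to -0.07 in IDH1mut. For the 16 mitochondrial genes it was 0.06 to 0.13, -0.04 to 0.07 and -0.12 to -0.10 in the same order. The IDH1mut arrays were the lowest on both lists. On the mitochondrial list IDH1wt replicate 2, at -0.04, was closer to them than the other CTL and IDH1wt arrays were.

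**Figure D4:**
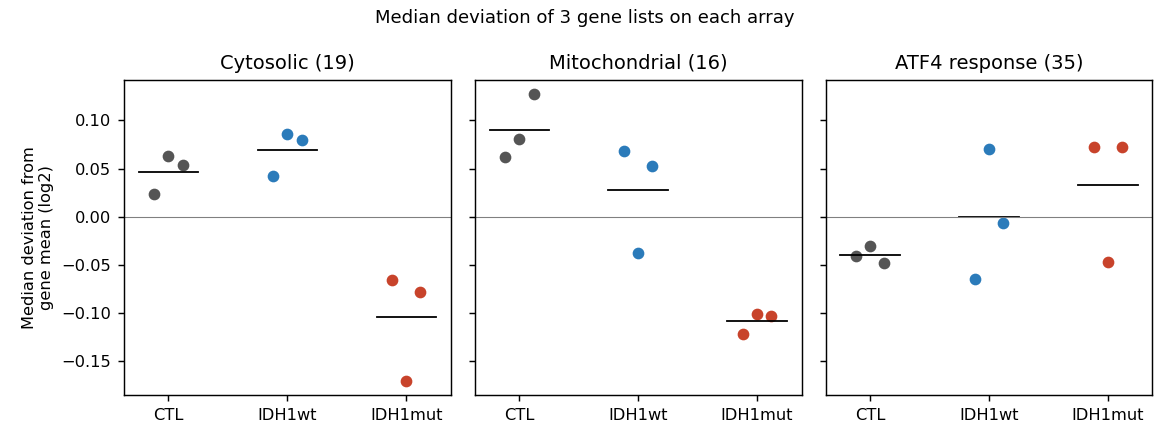
Median deviation (log2) of each list's genes from their means over the 9 arrays, 1 point per array with the group mean as a bar, for cytosolic synthetases, mitochondrial synthetases and the list of ATF4 response genes. Every IDH1mut point is below every CTL and IDH1wt point in the first 2 panels, and the groups overlap in the third.

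In IDH1wt against CTL, 0 of 37 members passed, beside 2.33% of all genes (0.711% lower and 1.62% higher; 0.914% and 2.64% of the brighter genes). At an unadjusted p under 0.05 the count in the limma fit was 4, and it was 0 after adjustment in each of the 14 alternative fits. The genes nearest to a call were Ears2 (-0.29 ± 0.10; adjusted p = 0.173), Aimp2 (-0.33 ± 0.13; adjusted p = 0.247), Yars2 (-0.25 ± 0.11; adjusted p = 0.27) and Farsb (0.22 ± 0.09; adjusted p = 0.27). The medians were 0.03 for cytosolic, -0.04 for mitochondrial and -0.04 for all genes. For Nars the 95% interval of the difference ran from -0.33 to 0.08 and for Aars from -0.22 to 0.16. For both genes, the fall seen in IDH1mut lay outside the interval. This does not extend to every gene that fell: Ears2 and Yars2 were themselves below 0 in IDH1wt, as given above. This comparison used the same CTL arrays as the one above.

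Set directly against IDH1wt, IDH1mut had 6.78% of all genes lower and 6.54% higher (12% and 10.8% of the brighter genes). Of the 37 members 0 were higher and 6 were lower, a share of 16.2%, near that of the brighter genes. These were Nars (-0.66 ± 0.09; adjusted p = 0.00132), Lars2 (-0.49 ± 0.10; adjusted p = 0.00885), Ears2 (-0.44 ± 0.10; adjusted p = 0.0154), Vars (-0.44 ± 0.10; adjusted p = 0.0152), Aars (-0.39 ± 0.09; adjusted p = 0.0154) and Kars (-0.30 ± 0.09; adjusted p = 0.041). The calls of Nars, Lars2 and Aars stayed in all 14 alternative fits. Vars lost its call without IDH1wt replicate 3 (adjusted p = 0.0539) or IDH1mut replicate 3, and Ears2 without IDH1wt replicate 1, IDH1wt replicate 3 (adjusted p = 0.0641) or IDH1mut replicate 2. Kars lost it without any single array, at adjusted p up to 0.12. With 1 array omitted the count was 3 to 5, the lowest without IDH1wt replicate 3.

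Of the 3 genes called against CTL alone, Farsa stood at -0.30 ± 0.10 (adjusted p = 0.0696), Yars2 at -0.24 ± 0.11 (adjusted p = 0.178) and Sars at -0.23 ± 0.09 (adjusted p = 0.125) from IDH1wt. In each of them IDH1wt had a mean between those of CTL and IDH1mut. The medians were -0.20 for cytosolic, -0.10 for mitochondrial and -0.00 for all genes. The comparison shares the IDH1mut arrays with that against CTL and is no separate sample of them.

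Genes that work with the synthetases were examined as a list of 22, of which 18 were measured. In IDH1mut against CTL, 3 fell and 1 rose (16.7% and 5.56%, beside 10.6% and 10.1% of all genes and 18.1% and 17% of the brighter ones), shares near or below the background. The median was -0.11, and -0.14 to -0.05 with 1 array omitted. Pstk, the kinase that acts on the serine attached to selenocysteine tRNA, read 6.67, 6.76 and 6.70 in CTL and 6.18, 6.28 and 6.00 in IDH1mut, and fell by 0.56 ± 0.12 (adjusted p = 0.00834). Gatb, a subunit of the amidotransferase that turns the glutamate loaded by Ears2 into glutamine, read 6.30, 6.27 and 6.34 in CTL, 6.34, 6.25 and 6.35 in IDH1wt, and 5.97, 5.85 and 5.81 in IDH1mut. Gatb thus fell by 0.43 ± 0.09 against CTL (adjusted p = 0.0053) and differed by -0.44 ± 0.09 from IDH1wt (adjusted p = 0.00777), the 1 list member past the threshold there. Another subunit gene, Qrsl1, stood at 0.22 ± 0.18 (adjusted p = 0.469).

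Ppa2, the mitochondrial pyrophosphatase that removes a product of the charging reaction, fell by 0.32 ± 0.09 (adjusted p = 0.0341), a call that any one of 5 omitted arrays ended (highest adjusted p = 0.104, IDH1mut replicate 3 omitted). Dtd2, a deacylase that removes wrongly charged amino acids, rose by 0.52 ± 0.15 (adjusted p = 0.0337) from low readings, a call that any one of 4 omitted arrays ended (highest adjusted p = 0.127, IDH1mut replicate 3 omitted). Eef1e1, the third scaffold protein of the complex, was at -0.29 ± 0.10 (adjusted p = 0.0718), and Xpot, the tRNA export receptor, at -0.10 ± 0.12 (adjusted p = 0.633). In IDH1wt against CTL, 0 of the 18 passed (3 at an unadjusted p under 0.05).

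Of 36 listed genes of the ATF4 amino acid response, 35 were measured, and in IDH1mut against CTL 8 rose and 4 fell. These are 22.9% and 11.4% of the list. Among all genes 10.1% were higher and 10.6% lower, and among the brighter ones 17% and 18.1%. The share of falls thus lay near the background. The share of rises lay closer to that of the brighter genes than to that of all genes, and was not tested against either. With 1 array omitted, 5 to 8 rose. The median was 0.05, and -0.00238 to 0.07 with 1 array omitted. Chac1 read 6.03, 5.92 and 5.90 in CTL, 5.91, 6.10 and 6.16 in IDH1wt, and 7.02, 6.76 and 6.60 in IDH1mut, a rise of 0.84 ± 0.12 (adjusted p = 0.000626). Asns, which makes the amino acid that Nars loads, read 7.89, 8.12 and 7.84 in CTL, 8.06, 8.52 and 8.30 in IDH1wt, and 8.62, 8.87 and 8.57 in IDH1mut. Asns thus rose by 0.74 ± 0.14 (adjusted p = 0.00291) in the same arrays in which Nars fell by 0.78. Set against IDH1wt, Asns was 0.39 higher in IDH1mut and did not pass (limma adjusted p = 0.0801), whereas Nars did. IDH1wt itself stood 0.34 above CTL for Asns (limma adjusted p = 0.231). Cebpg, a partner of ATF4, rose by 0.82 ± 0.15 (adjusted p = 0.00308).

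The amino acid transporter genes Slc38a2 (0.56 ± 0.10) and Slc7a11 (0.52 ± 0.11) rose as well, and were chosen for mention after their values were seen. Vldlr, a lipoprotein receptor read near the low end of the scale, fell by 0.92 ± 0.15 (adjusted p = 0.00172). The other 3 that fell encode enzymes of amino acid synthesis: Aldh18a1 of the proline pathway (-0.66 ± 0.13), Psph, the last step to serine (-0.54 ± 0.12), and Shmt2, the mitochondrial serine hydroxymethyltransferase (-0.29 ± 0.09), whose call was lost without any single array (adjusted p up to 0.128). Sesn2, Mthfd2 and Stc2 made up the 8 that rose, each with a call lost on leaving out single arrays (adjusted p up to 0.0575, 0.0922 and 0.131). Without CTL replicate 1 the list had 5 rises and 3 falls. Atf4 itself stood at 0.31 ± 0.13 (adjusted p = 0.109).

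**Figure D5:**
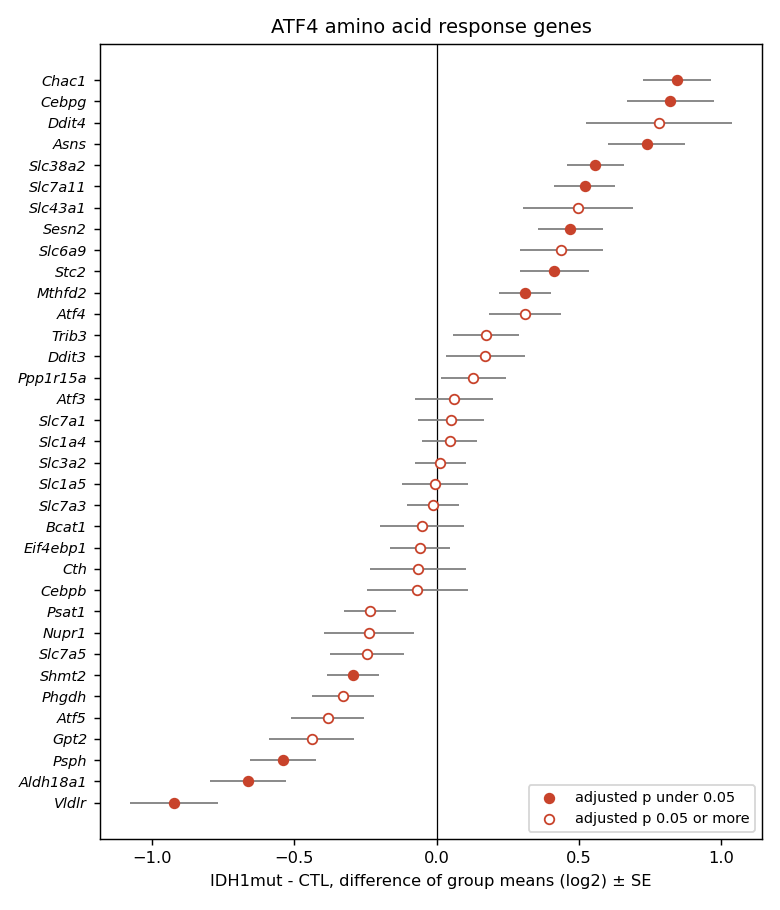
Difference between IDH1mut and CTL (log2) ± SE for the 35 measured genes of the ATF4 response list, ordered by size, with filled points for a limma adjusted p under 0.05. The 8 filled points on the right run from 0.31 (Mthfd2) to 0.84 (Chac1), and the 4 on the left from -0.92 (Vldlr) to -0.29 (Shmt2).

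By promoter, 8 of the 30 ATF4 list genes with a window held the core: Asns, Atf3, Chac1, Nupr1, Slc1a4, Slc7a11, Trib3 and Vldlr, the last in 1 of its windows. Of these Asns, Chac1 and Slc7a11, printed above, rose and Vldlr fell, while Atf3, Nupr1, Slc1a4 and Trib3 did not pass. Of the synthetases, 1 of the 7 that fell and had a window held the core (Aars), and 4 of the 21 that did not pass. Nars and Vars, which also fell, had no window and were not searched. The core thus stood in windows of genes that rose, fell and did not pass, as a description of these letters alone.

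In IDH1wt against CTL, 0 genes of the ATF4 list rose and 1 fell (all genes: 1.62% and 0.711%), Vldlr at -0.71 ± 0.15 (adjusted p = 0.0363), a call that any one of 5 omitted arrays ended (highest adjusted p = 0.152, CTL replicate 1 omitted). In IDH1mut against IDH1wt, 5 were higher (Chac1, Slc38a2, Slc7a11, Mthfd2 and Ppp1r15a) and 4 lower (Phgdh, Psat1, Atf5 and Shmt2). These are 14.3% and 11.4% of the list, beside 6.54% and 6.78% of all genes and 10.8% and 12% of the brighter ones. Both shares thus lay near those of the brighter genes. Chac1 was 0.74 ± 0.12 higher (adjusted p = 0.00245), and Phgdh, the first step to serine, differed by -0.58 ± 0.11 (adjusted p = 0.00572). Psat1, the step between Phgdh and Psph, differed by -0.43 ± 0.09 (adjusted p = 0.0107). Chac1, Phgdh and Psat1 kept their calls in all 14 alternative fits. The other 6 lost theirs on leaving out single arrays, and the count of higher genes fell to 1 without IDH1wt replicate 3, IDH1mut replicate 1 or IDH1mut replicate 3.

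Upstream of ATF4, 12 of 14 listed genes of GCN2, the other eIF2 kinases and the factors they act on were measured. Against CTL, 2 fell in IDH1mut and 0 rose: Eif2b5, a subunit of the exchange factor of eIF2 (-0.48 ± 0.09; adjusted p = 0.00346), and Gcn1, a coactivator of GCN2 (-0.43 ± 0.09; adjusted p = 0.00675). The share of falls, 16.7%, lay near that of all genes (10.6%) and of the brighter genes (18.1%). Eif2ak4, the gene of GCN2, read 3.61 ± 0.17, 3.65 ± 0.21 and 3.63 ± 0.15 (SD, n = 3) in CTL, IDH1wt and IDH1mut, near the low end. Impact, an inhibitor of GCN2, was higher in IDH1wt than in CTL by 0.68 ± 0.15 (adjusted p = 0.0425; ended by omitting any one of 4 arrays, the highest being 0.168 with CTL replicate 1 omitted), and IDH1mut differed from IDH1wt by -0.73 ± 0.15 (adjusted p = 0.00956). Eif2b5 also differed from IDH1wt, by -0.35 ± 0.09 (adjusted p = 0.0256; ended by omitting any one of 5 arrays, the highest being 0.0759 with IDH1mut replicate 3 omitted). Myc read 8.77, 8.85 and 8.77 in CTL, 8.67, 8.81 and 8.63 in IDH1wt, and 8.18, 8.43 and 8.38 in IDH1mut, a fall of 0.47 ± 0.10 against CTL (adjusted p = 0.00613). Against IDH1wt Myc differed by -0.37 ± 0.10 (adjusted p = 0.0281; ended by omitting any one of 4 arrays, the highest being 0.0867 with IDH1mut replicate 1 omitted).

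Markers of granulocyte maturation and of erythroid cells changed in the same comparison, in which 10.1% of all genes were higher and 10.6% lower. In IDH1mut against CTL, 7 of 11 late neutrophil markers rose and 7 of 7 primary granule markers, which belong to earlier granulocyte precursors, fell. Their summed linear levels ran from 82520 to 87230 and from 38480 to 40430 on the CTL arrays, from 85360 to 86630 and from 35320 to 39670 on the IDH1wt arrays, and from 103000 to 105900 and from 21310 to 22260 on the IDH1mut arrays. Of 10 erythroid markers 9 rose, with sums of 1539 to 1650 in CTL, 1342 to 4053 in IDH1wt and 3856 to 4640 in IDH1mut. With 1 array omitted that count was 6 to 8, the lowest without CTL replicate 2. In IDH1mut against IDH1wt 0 of the 10 erythroid markers passed (lowest limma adjusted p = 0.0608). In that comparison 7 of 11 late neutrophil markers were higher and 7 of 7 primary granule markers lower, beside 6.54% and 6.78% of all genes.

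Of 8 B cell markers 3 rose, the precursor genes Vpreb1, Igll1 and Dntt, with list sums of 633.5 to 1331 in CTL, 321.4 to 757.9 in IDH1wt and 1238 to 3151 in IDH1mut. Of 7 T and NK cell markers 2 rose, Cd3d and Cd3g (sums of 240.0 to 287.3, 242.3 to 280.1 and 297.9 to 397.5). Of 7 monocyte and macrophage markers 1 rose (C1qa) and 2 fell (Cd14 and Ly86), with sums of 5590 to 5859, 5990 to 6099 and 3954 to 5831. Of 8 stromal and endothelial markers 1 rose (Cxcl12) and 1 fell (Pecam1), 12.5% each way and near the share of all genes, with sums of 231.2 to 257.9, 263.5 to 291.8 and 198.0 to 236.2. The counts of B cell, T and NK cell and monocyte markers each changed with 1 array left out, to 1, 0 and 0 rises at the lowest. The summed level of the 37 synthetase genes ran from 10450 to 10690 in CTL, from 10410 to 10680 in IDH1wt and from 8915 to 9164 in IDH1mut. Such a sum weighs bright members most, and Nars, which fell furthest, was the brightest of them. The part of these cell types and stages in the lower synthetase levels was not tested.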

How the data were processed

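The 9 arrays carry log2 expression values as deposited, 1 per probe set. RMA, which corrects background, quantile-normalises and summarises probes, is the step named in the submitters' processing notes; its version and settings are not given in the sources used here. The table held 20877 probe sets, of which 17815 had 1 gene symbol in an annotation of 2016, and those with several (244) or none (2818) were left out. Array medians ran from 4.65 to 4.72 and correlations within groups from 0.992 to 0.997. RMA gives no detection call, and the number of arrays limits the precision. Probe sets ending in _s_at or _x_at may match several transcripts (5 of the 37: Aars, Sars, Farsb, Wars and Tars2). Of these genes, Aars and Sars fell in IDH1mut against CTL.

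limma 3.58.1 (R 4.3.3) estimated 1 mean for each group from the 9 arrays together, and moderated contrasts were tested two-sided, with Benjamini-Hochberg adjustment over 17731 genes and 0.05 as the threshold. Every adjusted p of a gene comes from limma, and ± beside a difference is its SE. The procedure was tested on simulated data. Alternatives were the mean of probe sets, brighter genes only, repeated quantile normalisation, centring, another spread model, array weights, the 6 arrays compared, the replicate number as a block, and leaving out each array. The first of these leaves the values of the members unchanged, as each has 1 probe set. Members and lists were chosen with earlier results of these data known. Values per array are given for every member called in any comparison; of other lists the rule named up to 5 called genes with the largest difference, plus Atf4, Eef1e1, Xpot, Asns and Myc. The other called genes of the ATF4 list, the called markers, and Qrsl1, Eif2ak4, S100a9 and Mpo were named outside that rule, after their values were seen.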

Additional observations from a re-analysis of the deposited data

How the results depend on the processing

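Of the 37 genes in 3 comparisons, 0 changed direction as a call under any alternative. Among the brighter genes alone, with 32 members tested, 16 fell in IDH1mut against CTL (24.7% of the brighter genes were lower there) and the mitochondrial median was -0.24. Other fits on all members gave 11 with 1 higher (repeated quantile normalisation), 10 with 1 higher (centring) and 12 (trend and robust variances). Array weights gave 13 with 1 higher, and the 6 arrays compared gave 11. The 1 higher was Qars each time. The mean of probe sets gave 9, but it could not change the values of members, which have 1 probe set each. Leaving out each array in turn gave 6 to 10 calls, the lowest without CTL replicate 1 or 3, with cytosolic medians from -0.22 to -0.087 and mitochondrial medians from -0.23 to -0.16. In IDH1mut against IDH1wt it gave 3 to 5 calls, the lowest without IDH1wt replicate 3, with medians from -0.22 to -0.13 and from -0.15 to -0.085, and the other fits gave 5 to 9. In IDH1wt against CTL the count was 0 throughout, with medians from 0.00295 to 0.043 and from -0.064 to -0.016. With the replicate number as a block 9 members passed between IDH1mut and CTL, 0 between IDH1wt and CTL, and 5 between IDH1mut and IDH1wt, where Kars lost its call (adjusted p = 0.0731); the block changed no other call of a member. Same-numbered arrays correlated from -0.0857 to 0.0257 in their deviations, and 1 of 9 arrays matched its own number best. No pairing by number was seen in these values, but a weak shared effect could be missed, and the labels do not say. Causes of these shifts were not tested. By construction the brighter set tests fewer genes, and a fit without an array has fewer samples. Signal over background limits the dim members, above all Qars and Nars2.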
